A study of Vitis vinifera with 4 samples.

Results

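The NAC61 binding events described here are those whose summit lay more than 1000 bp and no more than 5000 bp upstream of the transcription start site (TSS) of the gene to which the authors had assigned them. Of the 8558 events in the deposited list, 1879 could be paired by name with a gene in the copy of the study's annotation table used here, and 342 of these 1879 (18.2%) lay in that window, at 316 genes. The pairing decided which gene families could be seen, because the copy is ordered by gene annotation and stops within the letter D. Among the paired events the choice used only distance, and no value of signal, q-value, k-mer or neighbour entered it.

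In DNA affinity purification sequencing (DAP-seq), a tagged TF made in vitro is mixed with naked, fragmented genomic DNA, and the DNA it retains is sequenced. Binding is therefore read from the DNA alone, without nucleosomes or partner proteins of the plant. The study used genomic DNA from young leaves of Vitis vinifera cv. 'Syrah', with 2 replicates of HALO-NAC61, which is grapevine NAC61 behind a HALO affinity tag, and 2 replicates of GST-HALO as the negative control, all on DNA of the same cultivar and with no treatment. The authors' peak caller combined the replicates of each kind and gave 1 value per event, so no spread between replicates exists for any value below, no test over replicates could be made, and every interval covers counting error only.

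NAC TFs are a plant-specific family with a conserved DNA-binding domain at the N-terminus, and members are known for roles in senescence, fruit ripening and responses to drought and other stresses. In compact plant genomes most binding-site studies look first at the DNA just upstream of the TSS, while more distant upstream DNA can hold enhancers or belong to the regulatory space of another gene. An event was assigned to its closest gene, so how far upstream an event could be placed depended on the distance to the next gene, which was not analysed here.

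For part of the events the peak caller names a k-mer, a short word that it learned from the strongest events of the same list and then found at the event. The k-mers that were most frequent, or that stood at the members described most closely below, are shown first, because they are the only sequence that the files tie to an event. They run 5′ to 3′ as the caller wrote them, and capitals mark the 7 bases that match the study's NAC61 motif, which reads on the opposite strand as CACG or CAAG followed by any of the endings CAA, CCA, TAA or TCA, and so has 8 possible spellings. A k-mer wholly in lower case holds none of these, and n stands for any base.
k-mer at 14 of the events, bZIP40 among them: TGACGTGt
k-mer at 11 events, the chitinase precursor, DHN4 and DREB27 among them: TGGCGTGt
k-mer at 8 events, ARR3 among them: aTTGCTTGt
k-mer at 7 events, ARR1 among them: TGACGTGtt
k-mer at 7 events, BLADE-ON-PETIOLE2 among them: tgcgtgt
k-mer at 6 events, the constans-like gene among them: gattgcgta
k-mer at 6 events, SAUR29 and MYB164 among them: gTTGCGTGt
k-mer at 6 events, DREB27 among them: tgncgtgt
k-mer at 4 events, RH16 among them: aTGACGTG

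Events thinned out with distance from the TSS. There were 123 events from 1 to 2 kb upstream, 107 from 2 to 3 kb, 70 from 3 to 4 kb and 42 from 4 to 5 kb, with a median distance of 2396 bp and a range from 1015 to 4952 bp. For its putative targets the study kept only binding between 3 kb upstream and a point just past the TSS. The events beyond 3 kb by the distance used here lie outside that range. The first 1 kb upstream held 286 listed events at 268 genes, of which 128 lay within 250 bp of the TSS. Counted in windows of 250 bp, the events numbered 28 to 35 in each window out to 2500 bp and 32 in the next, between 15 and 20 in each of the 6 windows that follow, and 9 or fewer in each of the last 3. At the inner limit, the nearest events inside were those of the gene annotated as ATR (1015 bp), the aspartic protease gene AP27 (1021 bp) and DDB1A (1027 bp), with signals of 60, 150 and 90 reads. The nearest outside were those of CESA2 (998 bp), ARF4 (997 bp) and a calcineurin B gene (993 bp), with 73, 69 and 110 reads. At the outer limit, BLADE-ON-PETIOLE2 (4952 bp, 195 reads), a malate transporter gene (4946 bp, 100 reads) and a diacylglycerol kinase gene (4805 bp, 110 reads) were the last inside. MDR15 (5016 bp, 66 reads), CRK1 (5078 bp, 95.9 reads) and ARF16 (5131 bp, 65 reads) were the first outside.

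**Figure D1:**
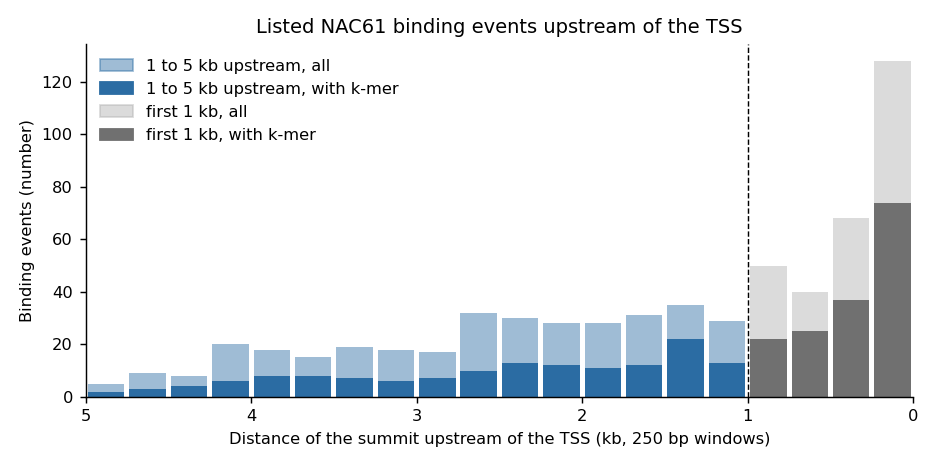
Number of listed NAC61 binding events in 250 bp windows by the distance of the summit upstream of the TSS (kb, TSS at the right). Blue bars are the 342 events from 1 to 5 kb and grey bars those in the first 1 kb, with the darker part holding a k-mer; the window next to the TSS holds 128 events and the windows beyond 1 kb hold between 5 and 35.

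The signal of an event, the number of HALO-NAC61 reads assigned to it, did not track distance. The median was 82 reads (95% interval 78 to 88) with quartiles of 66.1 and 108 and a range from 37 to 1268.2 reads. The first 1 kb upstream had a median of 85.1 reads (81 to 90), and the difference of -3.10 reads (-9.83 to 3.63) had an interval that included 0. Events inside genes had a higher median, 94 reads (92 to 97), and the whole list one of 89.25 reads (89 to 90.2), which 146 of the 342 events (42.7%) exceeded. Among the 600 events of the whole list with the highest signal, which are 7.01% of it, were 25 of the 342 (7.31%). Events that far upstream were found among the strongest of the list at about the share that the list itself sets. The same count was 12 of 286 (4.20%) in the first 1 kb and 62 of 696 (8.91%) inside genes, and differences between these shares were not tested.

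The median signal did not follow distance within the window either. It was 87 reads (82 to 95) from 1 to 2 kb, 77.1 (72 to 88) from 2 to 3 kb, 78.4 (73 to 88) from 3 to 4 kb and 97 (77 to 108) from 4 to 5 kb, and these intervals overlapped. Across the 342 events, which share libraries and control, Spearman's rho was -0.0489 between signal and distance and 0.00843 between −log10 q-value and distance. The −log10 q-value, the caller's measure of enrichment over GST-HALO, had a median of 6.675 (5.89 to 7.32) against 7.15 (6.99 to 7.29) in the whole list. It was 5 or more at 215 events (62.9%), against 66.9% of the whole list. Signal and q-value ranked the events alike in the main (rho 0.800 over the 342 events) but not at each event. The aldehyde dehydrogenase gene ALDH3H1, the bHLH gene bHLH010 and a gene for a calmodulin-like calcium-binding protein (CML, VIT_05s0029g00070) had events of 94 reads each, with −log10 q-values of 23.75, 6.83 and 4.41.

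**Figure D2:**
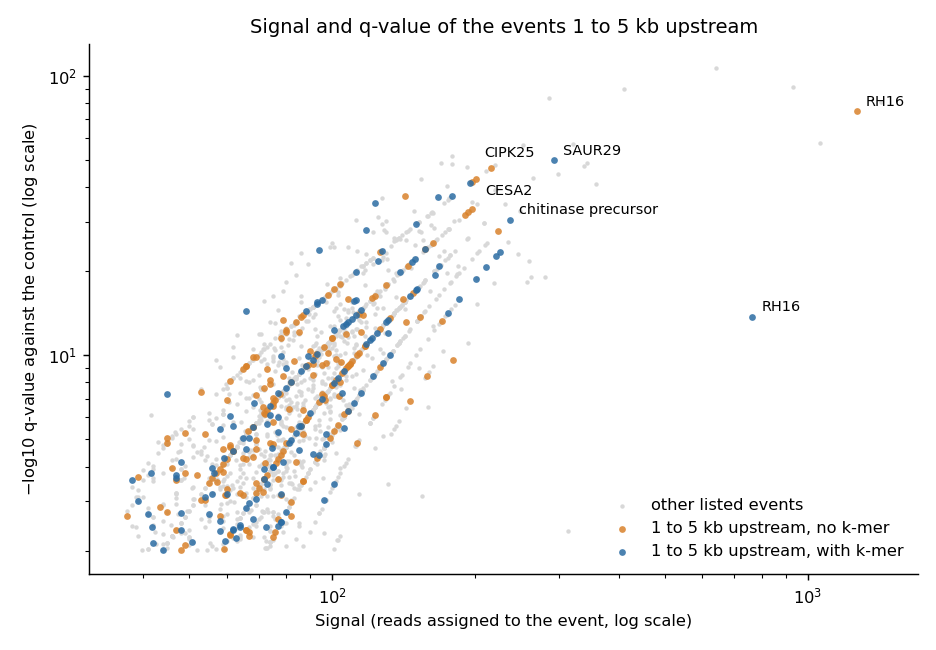
Signal (reads, log scale) against the −log10 q-value over the GST-HALO control (log scale) for each listed event, with the 342 events from 1 to 5 kb upstream in blue (k-mer) and orange (no k-mer) over the other listed events in grey. The events of RH16 stand to the right at 1268.2 and 764.6 reads, and at a given signal the q-values spread widely.

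The events of the highest signal stood at genes of unrelated function. The 2 highest were assigned to VIT_00s0441g00010, which encodes a DEAD/DEAH box RNA helicase (RH16) and lies on the unanchored sequences (chromosome 00, 15099144 to 15131025, plus strand, PN40024 12X.v2). Their summits were 3754 bp upstream (position 15095390, 1268.2 reads, −log10 q-value 74.79, no k-mer) and 4379 bp upstream (position 15094765, 764.6 reads, −log10 q-value 13.74, aTGACGTG). The second has the second highest signal of the 342 events with a q-value that many weaker events exceeded. The 6 events on chromosome 00 ranged from 66 to 1268.2 reads.

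Next came SAUR29 (VIT_16s0098g01150), of a family of small genes induced early by auxin, with 293 reads at 1269 bp upstream (chromosome 16, position 22916616, −log10 q-value 49.91, gTTGCGTGt). A chitinase precursor gene (VIT_04s0008g00120), for an enzyme that cleaves fungal cell-wall chitin, had 237 reads at 4551 bp (chromosome 4, position 20851854, −log10 q-value 30.58, TGGCGTGt). A bHLH TF gene (VIT_08s0058g00960) had 225 reads at 2003 bp (chromosome 8, position 10303193, −log10 q-value 23.41, gTTGCGTGt). These events were in every 1 kb of the window, from near its inner to near its outer limit. Ranked by q-value, RH16 and SAUR29 were followed by CIPK25, CESA2 and a DEMETER gene (VIT_13s0074g00450), with 47, 42.94 and 41.86. None of the latter had a k-mer. CIPK25 encodes a kinase regulated by calcium sensors (216 reads, 2069 bp), CESA2 a catalytic subunit of cellulose synthase (201 reads, 4025 bp), and DEMETER in Arabidopsis a DNA glycosylase that removes methylated cytosine (197 reads, 3001 bp). The lowest signals were 37 reads at the gene for chromatin remodeling 17, 38 at the cyclin-dependent kinase gene CDKA1 and 39 each at CYP79A2 and CYP72A1 (VIT_19s0135g00150).

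Events farther than 1 kb carried a k-mer less often than those close to the TSS. A k-mer was given at 144 of the 342 (42.1%, 95% Wilson interval 37.0 to 47.4%), against 158 of the 286 in the first 1 kb (55.2%, 49.4 to 60.9%). The difference was -13.1 percentage points (95% Newcombe interval -20.8 to -5.29). The share was 47.2% from 1 to 2 kb, 39.3% from 2 to 3 kb, 41.4% from 3 to 4 kb and 35.7% from 4 to 5 kb, with overlapping intervals. That from 1 to 2 kb (38.6 to 55.9%) overlapped the interval of the first 1 kb. Listed events neither in the first 1 kb nor in the window, which lay inside genes, downstream or farther away, had a k-mer at 449 of 1251 (35.9%, 33.3 to 38.6%), and the window exceeded them by 6.21 points (0.430 to 12.1). The share of the 342 thus lay between that of the first 1 kb and that of the rest. Events with and without a k-mer had medians of 86 (78 to 95) and 80.55 (76 to 87) reads and median −log10 q-values of 6.45 and 6.79, so the strength of both kinds overlapped.

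**Figure D3:**
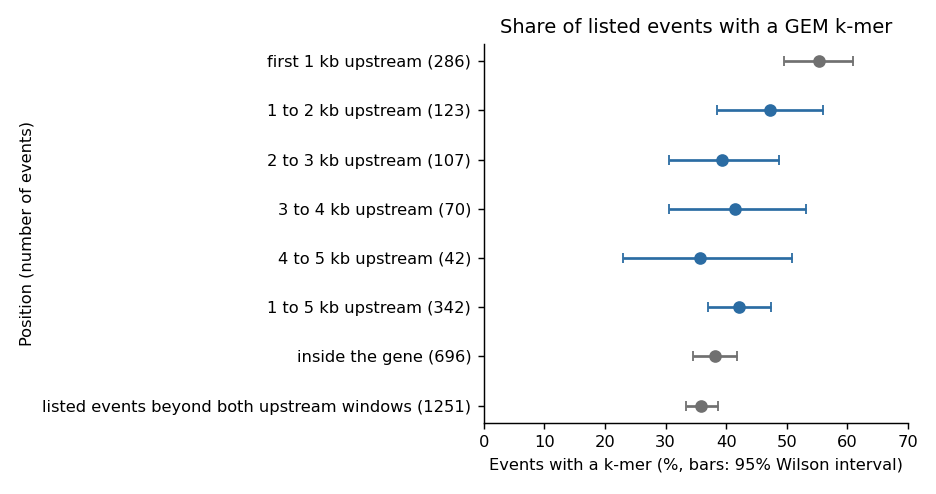
Share of listed events with a k-mer (%) by position relative to the assigned gene, with 95% Wilson intervals for counting error and the number of events in brackets. The first 1 kb upstream (55.2%) lies to the right of the interval of the events from 1 to 5 kb (37.0 to 47.4%), which overlaps that of the events inside genes; listed events beyond both upstream windows are at 35.9%.

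Where a k-mer was given, it more often spelled the whole motif in the distant events, and this depended on how the motif was read. The 7-base motif was in 111 of the 144 k-mers (77.1%, 69.6 to 83.2%), against 102 of 158 in the first 1 kb (64.6%), a difference of 12.5 points (2.23 to 22.4), and 404 of 607 at the other listed events (66.6%, 62.7 to 70.2%). Over all events, with or without a k-mer, such a k-mer was given at 111 of 342 in the window and 102 of 286 in the first 1 kb. The higher share thus held only among events with a k-mer. By distance, the motif was in 75.9% of the k-mers from 1 to 2 kb and 69.0% from 2 to 3 kb. It was in 82.8% of the 29 from 3 to 4 kb and 93.3% of the 15 from 4 to 5 kb, with overlapping intervals. With an upper limit of 3 kb the share was 73.0% (63.6 to 80.7%), an interval that included the 64.6% of the first 1 kb. The 4-base core CACG, read on either strand, was in 120 of the 144 (83.3%) and in 134 of 158 in the first 1 kb (84.8%), a difference of -1.48 points (-9.89 to 6.79). Because the caller learned k-mers and the study its motif from the strongest events of 1 list, these shares describe the caller's words and are not a separate measure of binding.

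Only 4 of the 8 possible spellings occurred, both at the 342 events and at all listed ones. The spelling with TTGCGTG was in 57 of the 144 k-mers (39.6%, against 34.4% at the other listed events) and had a median signal of 93.1 reads. That with TGACGTG, which contains the ACGT center that bZIP proteins are known to bind, was in 28 (19.4% against 15.0%) with a median of 80 reads. That with TGGCGTG was in 18 (12.5% against 10.4%), with a median of 106 reads and the highest median −log10 q-value of the spellings, 12.2. That with TTGCTTG was in 8 (5.56% against 6.75%), with 87 reads. The ranges of the 4 spellings overlapped widely. The 33 k-mers without the motif had a median of 78 reads. They included 12 that ended in GCGTA, with a median of 61.45 reads, and 3 with TAGCGTG, which made up 2.08% of the k-mers here and 7.58% at the other listed events.

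The 144 k-mers were 46 distinct words of 7 to 11 bases, of which 45 also occurred at listed events outside the window and 17 were seen once. The word gattgcgta was unevenly placed. It was given at 6 of the 342 events and at 6 of the 1537 others, which is 4.17% and 0.988% of their k-mers, and it was singled out after these values were seen. Its events ranged from 42 reads at a bHLH gene (VIT_17s0000g06000) to 221 reads at a gene with the CCT domain of CONSTANS-like proteins (VIT_06s0004g03870, 3093 bp), regulators of flowering by day length in Arabidopsis. Cryptochrome 1, a blue-light receptor, had the same word at an event of 132 reads (1992 bp).

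Close neighbours were counted at a smaller share of events than next to the TSS. Another event of the whole list lay within 500 bp of 22 of the 342 events (6.43%, 4.29 to 9.55%), against 31 of 286 (10.8%) in the first 1 kb, a difference of -4.41 points (-9.07 to -0.0140). Within 1000 bp the shares were 10.8% and 19.2%, a difference of -8.41 points (-14.1 to -2.83). Within 5 kb they were 35.4% and 33.9%, with a difference of 1.46 points (-6.01 to 8.85), so the gap did not extend to that range. Neighbours count each other, and the window held 11 same-gene pairs within 500 bp. The intervals in this paragraph treat the events as independent and are therefore too narrow. The difference within 500 bp, whose interval ends at -0.0140, is not settled by them. Among the 342, events with a k-mer had a neighbour within 5 kb at 61 of 144 (42.4%) and events without one at 60 of 198 (30.3%), a difference of 12.1 points (1.78 to 22.2). Within 500 bp these shares were 6.94% and 6.06%, and within 1000 bp 11.8% and 10.1%. In the first 1 kb upstream the shares within 5 kb were 38.6% with a k-mer and 28.1% without, so the gap was not particular to the window. The median distance to the nearest event was 11.6 kb over the 342 events.

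Most genes had 1 event in the window. This held for 292 of the 316 genes, while 22 had 2 events and 2 had 3. Elsewhere, 18 of the genes also had a listed event in the first 1 kb, 45 inside the gene, 11 downstream and 27 farther away, and 213 had no listed event besides the 1 in the window. The 24 genes with several events gave 26 neighbouring pairs, spaced from 104 to 2361 bp with a median of 625.5 bp. The event nearer to the TSS was the stronger in 16 of the 26 pairs, and the stronger exceeded the weaker by a median of 1.41 times. It was at least 2 times stronger in 4 pairs. The widest ratio, 3.29, was at the closest pair, 104 bp apart, upstream of a gene for a G-patch protein (VIT_17s0000g08950), with 167.2 reads at 1190 bp and 50.8 at 1294 bp. The caller divides reads between events this close, and neither signal is a whole number.

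The genes with 3 events were DREB27 (VIT_18s0001g05250, chromosome 18, 4220268 to 4222313) and LOG5 (VIT_03s0038g03420, chromosome 3, 2476022 to 2477403). DREB TFs bind the dehydration-responsive element and are known from drought and cold responses. The DREB27 events had 96.4 reads at 1379 bp, 97 at 2211 bp and 106 at 2861 bp. These signals were nearly equal and all above the median signal of the whole list. Their −log10 q-values of 6.94, 4.8 and 5.5 were all below its median of 7.15. LOG enzymes release active cytokinin from its nucleotide. Their gene here had weaker events of even strength, with 72.5 reads at 2613 bp (gTTGCGTG), 68.5 at 3021 bp (aTGGCGTGt) and 72 at 3386 bp. At bZIP40 (VIT_15s0046g01440, chromosome 15) the farther event was the stronger, with 211 reads at 2350 bp (TGACGTGt) against 93.1 at 1468 bp (gaTTGCGTG).

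**Figure D4:**
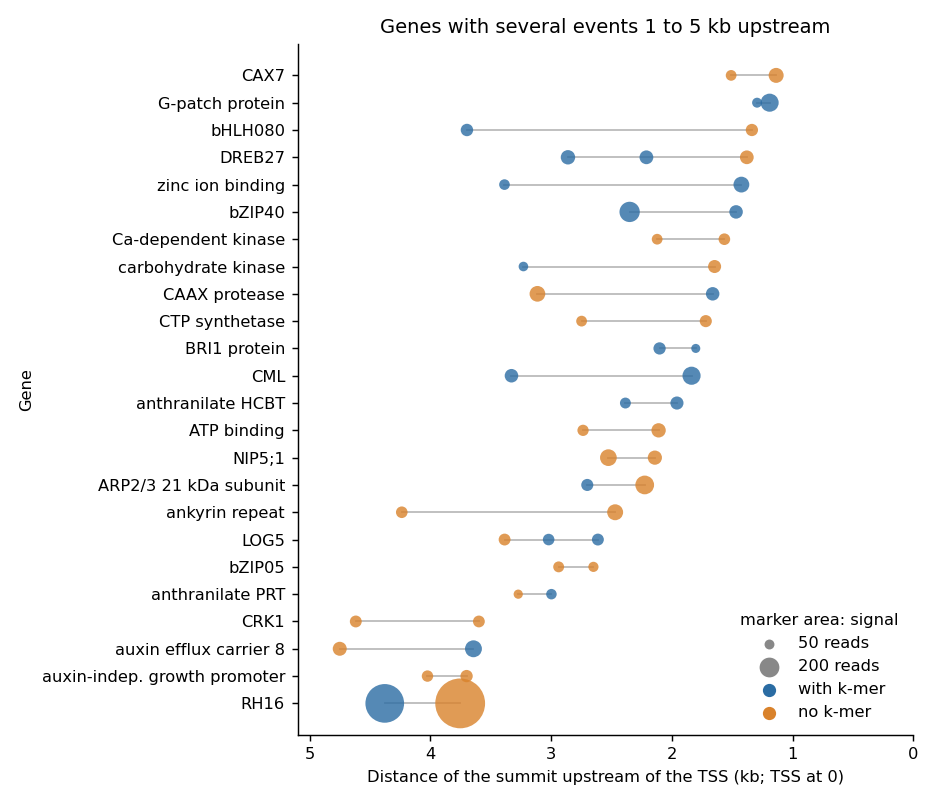
Positions (kb upstream of the TSS) of the 50 events at the 24 genes with more than 1 event in the window, with marker area in proportion to signal in reads, blue for a k-mer and orange for none. Spacings run from 104 bp at the G-patch gene to 2361 bp at bHLH080, and the events of RH16 have the largest markers.

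At the 18 genes with events on both sides of 1 kb, neither position was the stronger as a rule. The strongest event from 1 to 5 kb exceeded the strongest of the first 1 kb at 8 genes and fell short of it at 10. CESA2 had 201 reads at 4025 bp and 73 at 998 bp, bHLH043 163 at 2000 bp and 75 at 835 bp, and the constans-like gene 221 at 3093 bp and 132 at 81 bp. The reverse held at the aspartic protease gene AP32, with 68 reads at 2729 bp and 174 at 80 bp, and at an auxin-induced beta-glucosidase gene, with 82 at 1069 bp and 202 at 119 bp. MYB164 had nearly equal events of 149.8 reads at 2257 bp and 153 at 344 bp. The dehydrin gene DHN4, for a protein that accumulates in drying cells, had 108 reads at 1705 bp (TGGCGTGt) and 80.9 at 249 bp.

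By the study's own functional categories, Transport (43 events), Response to Hormone Stimulus (38) and Transcription Factor Activity (36) held the most events. Hormone and TF genes had 24.8% of their listed events in the window (95% Wilson intervals 18.7 to 32.2% of 153 and 18.5 to 32.4% of 145), against 18.2% over all listed events, a share just below both intervals. These intervals were not corrected for the 17 categories looked at. Events at the same gene were counted separately (38 events at 32 genes and 36 at 33), so no enrichment is claimed. Transport genes had 16.3% (12.4 to 21.3%). Over all 17 categories the share ran from 12.2% (DNA/RNA Metabolic Process) up to that of Cell Wall Metabolism (11 of 44 events), and it covers only annotations up to the letter D. The gene groups below were formed from annotations with the events already known, so their sizes are descriptive only. The share of a group's listed events that lay in the window ran from 14.3% (ABC transporters) to 48.0% (sugar and starch enzymes, 12 of 25). It was 11.8% for listed events in no group.

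TF genes were led by the bHLH family, with 17 events at 16 genes and a median of 83.9 reads (42 to 225). The family had 4 events in the first 1 kb, where all listed genes had 286 events against 342 in the window. Other groups leaned to the window as well, with 12 events there and 1 in the first 1 kb for sugar and starch enzymes. Cytokinin genes had 8 and 1, and cellulose synthases 9 and 2. Auxin genes had 13 in the window and 12 in the first 1 kb, defence genes 12 and 13, and ABC transporters 8 and 8. Events in no group numbered 127 and 176. Differences between groups were not tested. After VIT_08s0058g00960, bHLH043 had 163 reads and bHLH042 157 (1982 bp). bHLH080 had 2 events, of 77 and 79 reads at 1337 and 3698 bp, and the lowest signal, 42 reads, was at VIT_17s0000g06000. A homologue of FAMA, which in Arabidopsis ends the divisions of guard-cell precursors, had 81 reads (bHLH022, 3629 bp). The gene bHLH010, annotated after JAF13, a petunia regulator of anthocyanin synthesis, had 94 reads at 4174 bp. Neither event had a k-mer, and k-mers were given at 6 of the 17.

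The bZIP family had 8 events at 6 genes (median 89.55 reads). Behind bZIP40 stood bZIP54, with 131 reads at 1423 bp (TGACGTGt), and bZIP39, with 106.1 at 4731 bp. bZIP05 had the weakest pair, 53.1 and 60.9 reads at 2650 and 2938 bp. All 4 k-mers in the family held the motif. The 3 homeodomain genes had events of 49 to 89 reads and no k-mer. Among other regulators, BLADE-ON-PETIOLE2, a co-activator that in Arabidopsis shapes leaf bases and abscission zones, had 195 reads (−log10 q-value 41.31, tgcgtgt) at 4952 bp, and ATBPM2, a BTB protein of ubiquitin ligases, had 122 at 2126 bp.

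Auxin genes had 13 events at 12 genes with a median of 100 reads, 8 of them above the median of the whole list. SAUR29 was followed by a GH3 gene, for an enzyme that conjugates auxin to amino acids (VIT_07s0005g00090, 223.6 reads, 4275 bp), and by ARF8 (157 reads, 3941 bp, ggTTGCGTG), an auxin response factor that acts on auxin-regulated promoters. The transport gene for auxin efflux carrier 8 had 146 reads at 3644 bp (gaTTGCGTGt), 100 at 4752 bp and another event, in the first 1 kb, of 132 reads at 624 bp. The lowest signal was 69 reads at ABP19 (VIT_07s0005g05910). All 6 k-mers of the group held the motif.

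Cytokinin genes had 8 events at 6 genes, 7 with a k-mer and all 7 with the motif. Apart from AHK5, grouped only by its annotation as Cytokinin independent 2, they covered several steps of the pathway. ARR3, annotated as a type-A response regulator, of a class that damps the signal, had 175 reads (1131 bp, aTTGCTTGt). ARR24, which the study's annotation labels type A, had 139 reads (1505 bp, TGGCGTGt). ARR1, a type-B regulator that drives cytokinin-responsive transcription, had 118 reads at 2640 bp (TGACGTGtt), and the histidine kinase gene AHK5 had 89 at 2109 bp with the same k-mer. A zeatin glucosyltransferase gene, for an enzyme that stores cytokinin in an inactive form, had 72 reads at 1105 bp.

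Dehydration and abscisic acid genes had 12 events at 10 genes with a median of 96.7 reads and a range from 47 to 123. A dehydration-responsive protein gene (VIT_01s0011g00780) had 123 reads at 2061 bp, and the gene annotated as ABI4, an abscisic acid signalling TF in Arabidopsis, had 115 at 1469 bp (tagcgtgt). The weakest, CYP707A4, encodes the 8'-hydroxylase that inactivates abscisic acid (47 reads, 2994 bp, TGACGTGt). Brassinosteroid genes had 4 events: 117 reads at BRL3, a receptor, 91 at a BES1/BZR1 homologue, a TF of the pathway, and 77.1 and 41.9 at BRI1. Ethylene synthesis had 92.4 reads upstream of an ACC synthase gene (2584 bp) and 77 upstream of an ACC oxidase gene (3543 bp), the enzymes of its last steps.

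Calcium signalling was the largest of the gene groups by number, with 20 events at 17 genes (median 83 reads, 59 to 216). These were 26.7% of its 75 listed events, against 18.2% over all listed events and 11.8% for those in no group. Because the groups were formed with the events known, no excess of calcium genes is claimed. After CIPK25, a calmodulin-binding protein gene (VIT_07s0005g03830) had 185 reads at 2300 bp (tgcgtgt). The CML gene had 168 reads at 1837 bp (gTTGCGTG) and 94 at 3329 bp (tTTGCGTGtt). The kinase genes with several events were weaker: CRK1 had 71.4 and 72.2 reads at 3599 and 4619 bp, and a calcium-dependent kinase gene (VIT_17s0053g00710) had 69 and 59 at 1565 and 2122 bp. A k-mer was given at 7 of the 20.

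**Figure D5:**
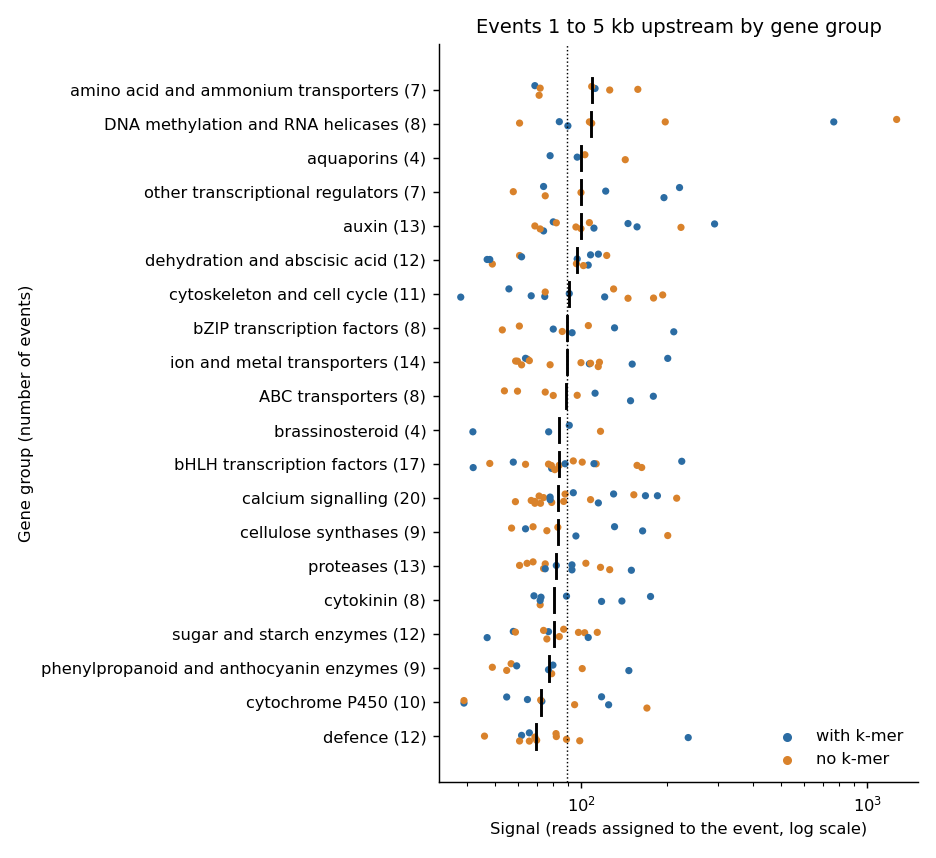
Signal (reads, log scale) of each event from 1 to 5 kb upstream in the gene groups with 4 or more events, in blue with and in orange without a k-mer, with black bars for group medians and the dotted line for the median of the whole list, 89.25 reads. Group medians run from 69.5 reads (defence) to 109 reads (amino acid and ammonium transporters), and the points of the groups overlap.

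Transporter genes spanned several families. Ion and metal transporters had 14 events at 13 genes (median 89 reads), led by a chloride channel gene of the CLC type (201 reads, 1471 bp, TGACGTGt) and the cation efflux gene MTP11 (151 reads, 4090 bp). The cation exchanger gene CAX7 had 114.9 and 59.1 reads at 1136 and 1509 bp. Amino acid and ammonium transporters had a median of 109 reads over 7 events, the highest among the groups with 4 or more events, with 158 at an amino acid transport protein gene (VIT_19s0027g01880, 2816 bp) and 126 and 72 at ammonium transporter genes both annotated as ammonium transporter 2. The 8 ABC transporter genes ranged from 54 reads at PDR23 to 179 at MRP1 (4082 bp, TGGCGTGtaa), and the 3 with a k-mer were those with the highest signals.

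Aquaporins, which conduct water or small solutes across membranes, had 4 events at 3 genes. NIP5;1 (VIT_02s0025g03260), known in Arabidopsis as a boric acid channel, had 103.2 and 142.8 reads at 2141 and 2526 bp and no k-mer. DELTA-TIP (VIT_09s0002g04020), of the vacuolar membrane, had 97 reads at 1281 bp (gTTGCGTG), and PIP2;4, of the plasma membrane, 78 at 1745 bp (tgcgtgt). Other genes that the study discusses were also in the window. An asparagine synthetase gene (VIT_06s0004g06830), for an enzyme of nitrogen storage and transport, had 120 reads at 2470 bp (TGGCGTGt), and the aldehyde dehydrogenase gene ALDH2B8 had 91.2 at 2048 bp. AOX1A, the alternative oxidase of the mitochondrial respiratory chain, had 75 reads at 1123 bp. The other 2 aldehyde dehydrogenase genes, which detoxify reactive aldehydes, were ALDH3F1 (101 reads, 1324 bp, aTTGCTTGt) and ALDH3H1 (94 reads, 2187 bp, TGACGTGtaa).

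Cell-wall and carbohydrate enzymes build and remodel the wall and turn over sugar and starch. The 9 cellulose synthase and cellulose synthase-like genes had a median of 83 reads (57.2 to 201). Behind CESA2 were 2 CSLG2 genes with 164.2 reads (VIT_05s0020g05060, 1181 bp, gTTGCGTGtt) and 131 reads (VIT_05s0049g00010, 2375 bp, aTTGCTTGt). On chromosome 2, 3 CSLG3 genes between 1480345 and 1557246, all on the plus strand, each had 1 event, with 96, 68 and 76 reads at 1651, 2754 and 1473 bp. Sugar and starch enzymes had 12 events at 11 genes, with a median of 80.5 reads. An alpha-amylase gene, for the enzyme that opens starch (VIT_14s0068g00420), had 114 reads at 4243 bp, and an alpha-glucan phosphorylase gene had 106 at 1657 bp (TGGCGTGt). The invertases (beta-fructofuranosidases), which split sucrose, had 77 and 59 reads, and the carbohydrate kinase gene with 2 events had 87 and 47 at 1646 and 3230 bp.

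Genes of secondary metabolism and defence are given beside the share of the whole window, where 42.7% of events exceeded the median of the whole list. Only annotations up to the letter D are covered, the counts are small, and differences from that share were not tested. Of 9 phenylpropanoid and anthocyanin enzyme genes, 2 exceeded the median of the whole list: DAHPS3, for the first step of the shikimate pathway that supplies it (147 reads, 4086 bp, ggTTGCGTGt), and an anthocyanidin glucosyltransferase gene (VIT_18s0041g01080, 101 reads, 1130 bp). CHS3, a chalcone synthase at the entry to the flavonoids, had 79 reads at 4069 bp, and the lowest was UGT-like7 with 49. The 10 cytochrome P450 genes ranged from 39 to 170 reads, 4 of them above that median, with the highest at a CYP94C9 gene (VIT_08s0007g03660, 1979 bp). Of 12 defence genes, the chitinase precursor gene and that of the blight-associated protein p12 (99 reads, 1172 bp) were the 2 above the median of the whole list, and the 5 genes annotated as disease resistance proteins, receptors for pathogen molecules in the main, had 61 to 70 reads. The lowest was a class IV chitinase gene with 46 reads.

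Protease genes had 13 events at 12 genes (median 82 reads), 7 of them at genes for aspartic proteases of the AP series or the related aspartyl protease family. AP27 had 150 reads at 1021 bp (TGACGTGt), AP16 104 at 1545 bp and AP6 93 at 1450 bp (TGGCGTGt), and the papain-type XCP1, known in Arabidopsis from the autolysis of xylem vessels, had 117 at 1276 bp. A CAAX protease gene (VIT_02s0025g00670) had 93 and 126 reads at 1662 and 3114 bp. The lowest signal was 61 reads at an aspartyl protease gene (VIT_08s0007g02420). Genes of the cytoskeleton and cell cycle had 11 events, from 38 reads at CDKA1 (4095 bp, cTTGCGTG) to 193 at a cyclin D gene (VIT_07s0129g01100, 3483 bp). The gene of the 21 kDa subunit of the ARP2/3 complex, which nucleates branched actin, had 179.3 and 74.7 reads at 2225 and 2701 bp.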

How the data were processed

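The authors trimmed reads with fastp 0.21.0 and mapped them on PN40024 12X.v2 using Bowtie2 2.0 (versions from the submitters' processing notes). They removed reads of low mapping quality, and called events with GEM 3.4 in replicate mode on nuclear chromosomes. They deposited 1 list for 2 HALO-NAC61 and 2 GST-HALO replicates. The deposited signal is the number of HALO-NAC61 reads assigned to an event, and the −log10 p-value and −log10 q-value, computed by the authors' caller, compare it with the control. The deposited start and summit offset gave the summit. The depth per library and the control reads per event are not columns of the list and were not analysed here.

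Gene assignments, coordinates, annotations and k-mers came from the study's annotation table, of which 1879 of 8558 events were in the copy used here; its columns of folds and signals were not used. Its gene model was made on an earlier assembly and transferred by the authors. Distance ran from the summit to the annotated gene start (gene end on the minus strand). Because the copy was cut by annotation, no overlap or enrichment test was run. Shares have 95% Wilson intervals, differences of shares Newcombe intervals and medians order-statistic intervals. PCR copies are not independent molecules, and all of these cover counting error only. The functions were tested on simulated data.

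Named genes were, in the main, the 2 to 4 highest of a group, the lowest and those with several events. Added to these were the 5 highest by signal and by q-value, those at the limits and those the study names. Members, lists and groups were chosen with earlier results of these data known. Alternatives covered the minimum q-value, the summit position, both distance limits, chromosome 00, close neighbours, the motif core and the neighbour distance. Locus names matched no entry of the RefSeq gene table, and no sequence of the 12X.v2 build was used, so no sequence around a summit is given. Scripts ran under Python 3.11.15 (pandas 2.3.3, scipy 1.17.1, numpy 2.4.6), and plots were drawn in matplotlib 3.10.9.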

Additional observations from a re-analysis of the deposited data

How the results depend on the processing

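No paired analysis was possible because the list holds no value per replicate, and for the same reason no replicate could be left out. Of 64 values recomputed under the alternatives for 9 results, 57 stayed within the interval of the reported value (for numbers of events and genes, within 1.5 times) and 7 moved. Keeping only events of −log10 q-value 5 or more gave 215 events at 205 genes, with a median signal of 101 reads and a median −log10 q-value of 9.62, and a minimum of 3 gave a median −log10 q-value of 7.4; raising the minimum removes weak events by construction. Read as the 4-base core CACG, the motif was in 83.3% of the k-mers. With neighbours counted within 1000 bp, 10.8% of events had one. The difference in median signal from the first 1 kb, -3.10 reads, became 2 reads at a minimum −log10 q-value of 5, and its interval included 0 under each alternative. The difference in the share with a k-mer ranged from -16.0 to -11.3 points, below 0 in each of its alternatives, which were added after the data were seen. The pairing covers 1879 of 8558 events, and each event has 1 pooled value, so events of near 40 reads and events of q-value just past the caller's limit cannot be checked between replicates.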
